A study of Homo sapiens with 30 samples.

Results

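The comparison concerned where SAP30, a subunit of the SIN3/HDAC corepressor complex, and the histone mark H3K4me3 were found in parental cells of MDA-MB-231, a widely used human line of triple-negative breast cancer. The members were 4 of the 30 samples of the series: 2 replicate ChIP-Seq libraries for SAP30 and 2 for H3K4me3, all from parental cells without knockout or treatment. Of the series, 18 samples had a list of peak summits, and the lists for SIN3A, SIN3B, Pol II and H3K9Ac in parental cells and for H3K4me3 in SAP30-KO1 cells, a knockout line that per the study's methods mixes several single-cell clones, served as further readouts (2 libraries each). Each summit is a single base, where the caller run by the authors put the maximum of a peak. Nothing in the labels says whether replicates came from separate cultures, so the spread between them may be technical.

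SIN3A and SIN3B are scaffold proteins that bring the histone deacetylases HDAC1 and HDAC2 to chromatin, and SAP30 is one of the smaller subunits on that scaffold. The complex is brought to genes largely by sequence-specific factors. H3K4me3 is deposited by COMPASS-type methyltransferases on the nucleosomes next to active or poised start sites, most strongly in CpG-rich promoters. Since some SIN3 subunits, ING1 and ING2 among them, have a PHD finger that binds H3K4me3, the position of a SIN3 subunit relative to this mark is a natural question.

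After limitation to the autosomes and chromosome X, the SAP30 lists held 34988 and 34988 summits and the H3K4me3 lists 24076 and 22390. The equal length of the SAP30 lists did not come from a copied list, since only 0.494% of the summits fell on the same base. Of the summits of a SAP30 library, 82.2% and 87.4% lay within 1000 bp of one in the other replicate, and for H3K4me3 the shares were 92.0% and 92.8%. The depth of the libraries is unknown. The score of a summit was therefore used only as its rank within its own list, written as a percentage from 0 for the best to 100 for the weakest. Promoters of mesenchymal identity genes, which this line is known to express, carried both SAP30 and H3K4me3 in 12 of 13 cases, including VIM, ZEB1, AXL and CD44, and 10 of 12 genes of other lineages, such as ALB and GFAP, carried neither, against 60% with both and 33.5% with neither among all protein-coding genes. Luminal epithelial genes, which mark another kind of breast cancer, carried both in 10 of 18 cases, so this check is weak.

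Sequences are shown for some of the leading genes with SAP30 and no H3K4me3 (NPAS4, XKR7, HTR5A and BARHL1). They are also shown for SYP and DNAJC6, which had both targets but with SAP30 far ahead in rank. These sequences hold close copies of RE1, the element bound by the repressor REST, a factor known to recruit SIN3 and to keep neuronal genes off in other tissues. An RE1-like match was CAGCACC, any 2 bases and GGACAG on either strand with at most 1 mismatch in the 13 fixed letters, and capitals mark each match. Such a match was in only 1.20% of all SAP30-only regions, so the sequences shown are not typical of them. NPAS4 lies on the plus strand of chr11:66188506-66194178, and the window chr11:66189159-66189358 is intronic and held 5 matches. XKR7 lies at chr20:30555954-30591190 (plus strand), and its window chr20:30556298-30556497 is coding throughout and held 2 matches. HTR5A lies at chr7:154862034-154879102 (plus strand), and its window chr7:154861764-154861963 is upstream of the gene, in an intron of HTR5A-AS1, with 3 matches. BARHL1 lies at chr9:135457993-135465639 (plus strand), and its window chr9:135457517-135457716 is outside annotated genes and held 2 matches. SYP lies on the minus strand of chrX:49044268-49056677, and its window chrX:49056538-49056645 covers 36 coding bases of SYP and the start of an intron, and overlaps SYP-AS1. DNAJC6 lies at chr1:65713902-65881554 (plus strand), and its window chr1:65775502-65775701 holds 120 coding bases at an internal start site. All coordinates are GRCh37, sequences are from that genome in the direction of the gene, and bases annotated as UTR were left out.
NPAS4: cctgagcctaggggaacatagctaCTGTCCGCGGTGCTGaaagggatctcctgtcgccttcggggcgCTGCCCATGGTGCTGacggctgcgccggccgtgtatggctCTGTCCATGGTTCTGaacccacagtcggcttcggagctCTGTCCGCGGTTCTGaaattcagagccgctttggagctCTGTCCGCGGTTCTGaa
XKR7: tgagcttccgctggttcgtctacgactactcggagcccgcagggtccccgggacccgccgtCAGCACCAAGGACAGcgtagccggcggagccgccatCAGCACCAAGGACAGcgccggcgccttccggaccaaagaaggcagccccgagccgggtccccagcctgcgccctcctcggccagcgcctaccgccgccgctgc
HTR5A: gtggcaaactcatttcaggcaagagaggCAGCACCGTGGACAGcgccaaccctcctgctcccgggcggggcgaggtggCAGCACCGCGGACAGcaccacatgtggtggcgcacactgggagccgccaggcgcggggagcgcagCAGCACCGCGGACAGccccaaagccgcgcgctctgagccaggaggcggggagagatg
BARHL1: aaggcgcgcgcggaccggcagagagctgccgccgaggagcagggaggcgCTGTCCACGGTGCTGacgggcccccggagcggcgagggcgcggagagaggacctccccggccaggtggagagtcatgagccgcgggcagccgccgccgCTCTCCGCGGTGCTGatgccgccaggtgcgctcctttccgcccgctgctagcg
SYP: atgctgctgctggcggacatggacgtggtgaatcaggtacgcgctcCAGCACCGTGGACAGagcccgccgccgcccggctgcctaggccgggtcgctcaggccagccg
DNAJC6: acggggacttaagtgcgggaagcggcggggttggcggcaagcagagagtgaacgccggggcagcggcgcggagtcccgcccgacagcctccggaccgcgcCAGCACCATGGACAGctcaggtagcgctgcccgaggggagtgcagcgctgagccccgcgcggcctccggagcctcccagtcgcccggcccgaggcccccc

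Also shown are distal SAP30 sites with an AP-1 motif (TGANTCA, capitals), the binding sequence of FOS and JUN family dimers. They are 2 of the 4 best-ranked SAP30-only regions far from start sites, chosen after their values were seen. The best of these 4, near PLEC, with SAP30 ranks of 0.224% and 0.187%, had neither motif and had Pol II in both libraries. The region in DNAJB6 had SAP30 ranks (the percentage position in its list, 0 being best) of 0.427% and 0.196%, and that near CAMSAP1-DT had 1.23% and 0.613%, both with SIN3A and SIN3B in both libraries and no Pol II. The window chr7:157197738-157197937 is in an intron of DNAJB6, 46571 bp from the nearest start site, and chr9:138818657-138818856 is outside annotated genes, 18447 bp from the start site of CAMSAP1-DT. Both are given on the plus strand of GRCh37.
intron of DNAJB6: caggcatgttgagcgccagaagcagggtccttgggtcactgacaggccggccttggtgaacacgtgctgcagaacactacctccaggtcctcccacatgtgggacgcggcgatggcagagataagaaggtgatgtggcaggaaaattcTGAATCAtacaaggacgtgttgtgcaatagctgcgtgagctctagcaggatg
near CAMSAP1-DT: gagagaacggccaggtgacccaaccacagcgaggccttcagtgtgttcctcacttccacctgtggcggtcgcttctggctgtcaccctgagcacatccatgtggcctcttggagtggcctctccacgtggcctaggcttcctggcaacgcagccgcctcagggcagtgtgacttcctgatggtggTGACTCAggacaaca

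For contrast, ZNF311 is a promoter with H3K4me3 alone, with CpG dinucleotides in capitals. Its window chr6:28973125-28973424 (GRCh37, minus strand, 300 bases, outside annotated genes) held 16 CpG. A motif match in any of these windows is a description and not a site shown to be bound.
ZNF311: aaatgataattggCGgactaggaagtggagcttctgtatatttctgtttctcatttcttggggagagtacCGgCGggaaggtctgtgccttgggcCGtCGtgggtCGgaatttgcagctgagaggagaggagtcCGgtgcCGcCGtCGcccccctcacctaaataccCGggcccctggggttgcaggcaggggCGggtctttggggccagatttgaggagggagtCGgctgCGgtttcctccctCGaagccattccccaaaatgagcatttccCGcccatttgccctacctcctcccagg

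SAP30 summits were less concentrated at promoters than H3K4me3 summits. Within 1000 bp of annotated start sites, of protein-coding genes or long noncoding RNAs, lay 43.7% and 47.8% of the summits of the SAP30 libraries and 67.7% and 67.1% of those of the H3K4me3 libraries. The means were 45.8% ± 2.92 for SAP30 and 67.4% ± 0.364 for H3K4me3 (SD, n = 2 each), and the groups did not overlap. The difference of 21.6 percentage points had an exact permutation p of 0.33 (two-sided), the smallest that 2 libraries against 2 allow, so the 0.05 level could not be reached by any result of this design. With all 4 lists limited to the length of the shortest, the difference shrank to 9.25 points.

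Summits within 1000 bp of each other were merged, and a consensus region of a target had a summit of both replicates. This gave 24796 SAP30 and 18303 H3K4me3 regions. H3K4me3 was present at 15246 SAP30 regions (61.5%), and SAP30 was present at 15218 H3K4me3 regions (83.1%). Across the 4 pairs of single libraries, the first share ran from 53.6% to 57.3% and the second from 81.4% to 83.1%. The lower share on the side of SAP30 depended on the longer SAP30 lists: with lists of equal length the shares were 74.7% and 75.03%.

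Overlap followed rank closely. Of the SAP30 regions in the best decile, 95.8% had H3K4me3, followed by 94.2%, 92.5% and 85.6% in the next deciles, 72.4% in the fifth and 21.5% in the weakest. Much of this fall went with a change in location, since 95.5% of the best decile and 14.2% of the weakest lay at promoters. Within promoters the share with H3K4me3 stayed at 97.8% in each of the 3 best deciles and was still 64.7% in the weakest decile. Away from promoters it was 53.2% in the best decile (111 regions) and 14.3% in the weakest (2129 regions), so a strongly ranked SAP30 site away from promoters lacked H3K4me3 nearly as often as it had it.

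The reverse relation had a different shape. At H3K4me3 regions the share with SAP30 was between 96.9% and 98.3% in each of the 6 best deciles and dropped only after that, to 88.4%, 66.4%, 48.9% and 41.6%. Promoter and distal H3K4me3 regions followed the same course, with 38.7% and 42.4% in the weakest decile. H3K4me3 regions without SAP30 were thus concentrated among the weakly ranked H3K4me3 peaks, at promoters and away from them.

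**Figure D1:**
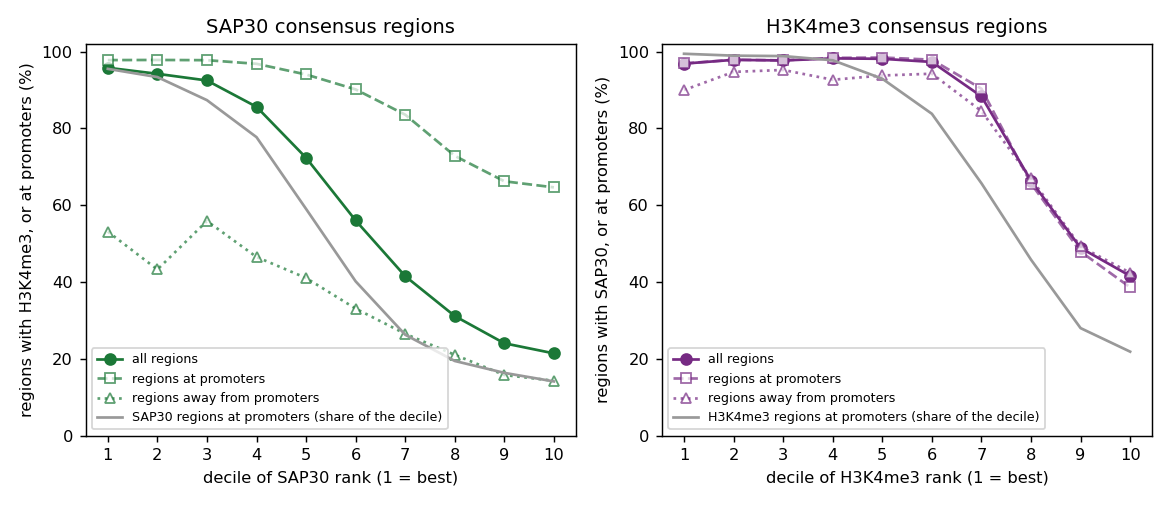
Share of consensus regions with the other target (y axis, %) by decile of the region's own rank (x axis, 1 = best), for SAP30 (left, 24796 regions) and H3K4me3 (right, 18303 regions), over all regions and split by promoter, with the share at promoters in grey. The SAP30 curve falls from 95.8% to 21.5% alongside the promoter share, while the H3K4me3 curve stays above 96% through the sixth decile and ends at 41.6%.

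When all 4 lists were merged together, 14924 regions held summits of all 4 libraries. A further 8648 regions held both SAP30 libraries and no H3K4me3 summit, 1927 held both H3K4me3 libraries and no SAP30 summit, and 11316 had a target in 1 library only and were set aside. The classes differed in location: 82.0% of the shared regions, 33.0% of the H3K4me3-only regions and 8.27% of the SAP30-only regions were at promoters. Of the SAP30-only regions, 7933 were distal and 715 were at promoters.

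In shared regions, a better SAP30 rank went with a better H3K4me3 rank, with a Spearman correlation of 0.69 across 14924 regions. Single library pairs gave 0.65 to 0.68, below the correlations between replicates, 0.90 for SAP30 and 0.90 for H3K4me3. The correlation was 0.59 over the 12244 promoter regions and 0.36 over the 2680 distal ones. These values are descriptions over regions that share libraries, and no p-value was given.

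The relation was carried by the weaker peaks. In the 3 best SAP30 deciles of the shared regions the median H3K4me3 rank was 17.03%, 16.9% and 17.7%, with an interquartile range of 10.4% to 26.6% in the first. It then rose to 20.8% in the fourth decile, 39.0% in the seventh and 65.2% in the weakest. Seen from H3K4me3, the median SAP30 rank was 11.5% in the best decile, 13.5% in the third, 30.6% in the seventh and 53.9% in the weakest. Across the best-ranked SAP30 regions, H3K4me3 rank therefore varied little with SAP30 rank.

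**Figure D2:**
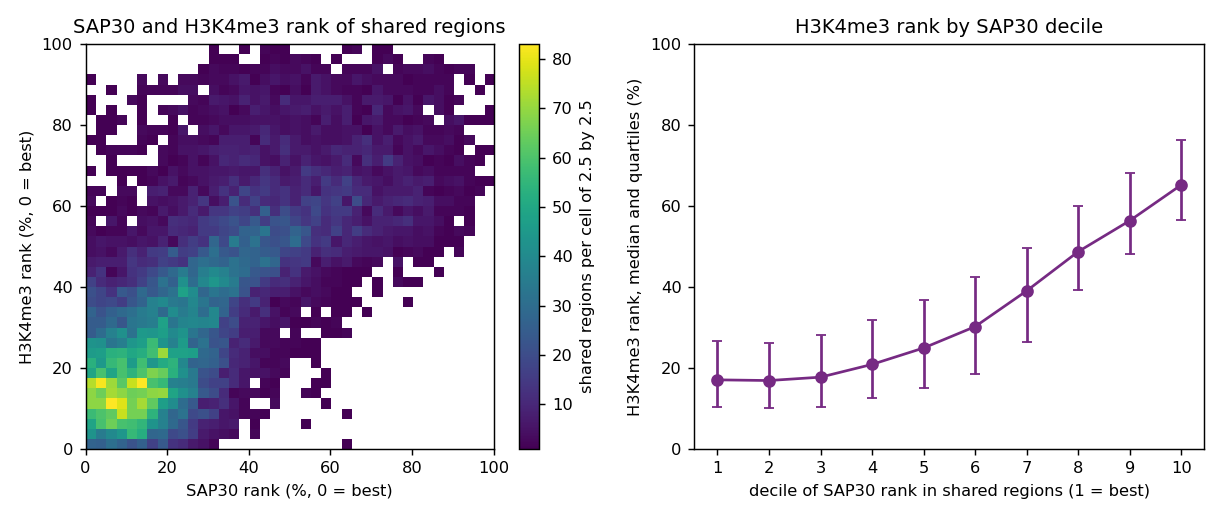
Left, number of shared regions by SAP30 rank (x axis, %) and H3K4me3 rank (y axis, %), with 0 for the best summit of a list. Right, H3K4me3 rank by decile of SAP30 rank (points are medians, bars the interquartile range). The medians lie at 16.9% to 17.7% across the 3 best deciles and climb to 65.2% in the last.

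The summits of the targets were displaced from each other. From the best SAP30 summit of a shared region, the nearest H3K4me3 summit lay at a median distance of 170 bp in both pairs with SAP30 replicate 1 and 183.5 bp and 183 bp in the pairs with replicate 2, a mean of 177 bp ± 7.65 (SD over the 4 library pairs, which share libraries). Between replicates of the same target, the median was 53 bp and 54 bp for SAP30 and 28 bp in both directions for H3K4me3. The displacement thus exceeded the error of a summit position in all 4 pairs. Of the SAP30 summits, 15.5% to 17.5% had an H3K4me3 summit within 50 bp, against 47.6% and 48.3% for SAP30 summits of the other replicate.

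The distance was nearly the same at promoters, 170 bp to 184 bp, and away from them, 172 bp to 182 bp. It was slightly longer at the strongest SAP30 sites: between replicates 1 of both targets it was 193 bp in the best SAP30 decile and 150 bp in the weakest. In 10.5% to 12.1% of the shared regions, the nearest H3K4me3 summit was over 500 bp away.

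At start sites the displacement had a direction. Over the 12049 protein-coding genes with all 4 libraries within 1000 bp of a start site, the best SAP30 summit lay at a median of +57 bp and +48 bp in the direction of transcription, and the best H3K4me3 summit at +162 bp and +170 bp. SAP30 summits were close to the start site, with 44.2% and 45.6% of them within 100 bp, whereas 12.1% and 11.8% of the H3K4me3 summits were so near. Median absolute distances were 118 bp and 115 bp for SAP30 and 208 bp and 210 bp for H3K4me3, with no overlap between groups (difference 92.5 bp, exact permutation p = 0.33, the smallest possible). The signed medians differed by 114 bp (exact permutation p = 0.33).

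Gene by gene, the H3K4me3 summit lay downstream of the SAP30 summit at 68.8% to 69.8% of the genes, with a median displacement of 86 bp to 95 bp in the 4 library pairs. The H3K4me3 profile had its main peak from 100 to 200 bp downstream, a low of 1.10% and 1.01% of genes per 50 bp between 150 and 100 bp upstream, and a small second rise to 1.88% and 1.86% between 250 and 200 bp upstream. The SAP30 profile peaked in the first 50 bp downstream, with 15.7% and 16.3% of genes. The SAP30 maximum thus lay between the H3K4me3 maxima.

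**Figure D3:**
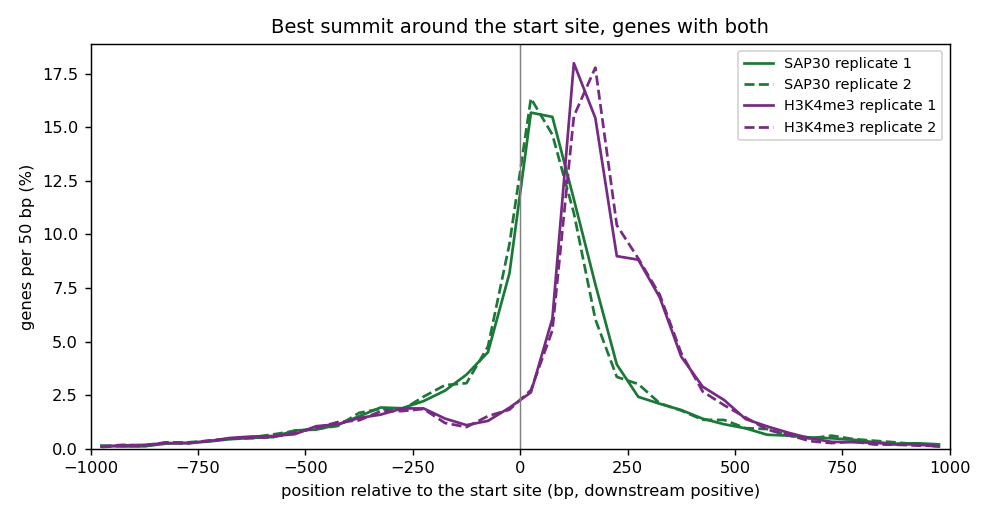
Position of the best-ranked summit within 1000 bp of a start site (x axis, bp, downstream positive) for 12049 protein-coding genes with all 4 libraries, as the percentage of genes per 50 bp (y axis), 1 line per library. SAP30 peaks in the first 50 bp (15.7% and 16.3%) and H3K4me3 between 100 and 200 bp, with a dip upstream of the start site, and replicates follow each other.

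Of 20098 protein-coding genes, 12049 (60%) had both targets in all libraries within 1000 bp of a start site and 6741 (33.5%) had neither. SAP30 without H3K4me3 was found at 159 genes (0.791%) and H3K4me3 without SAP30 at 405 (2.02%), and the rest had a target in 1 of its 2 libraries. A window of 500 bp gave 453 and 640 such genes, the better-ranked 50% of each list 468 and 150, and lists of equal length 109 and 743, so these counts depend on the setting and their order is not fixed. The H3K4me3-only count was 630 without SAP30 replicate 1. Among genes with both, the median rank was 16.99% for SAP30 and 22.7% for H3K4me3, and their Spearman correlation was 0.52 (12049 genes).

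The 8 genes with the best mean rank over the 4 libraries were CCT2, HASPIN, E2F8, FBXO5, PDIA4, HNRNPU, MAX and IPO7. FBXO5, an inhibitor of the anaphase-promoting complex, had SAP30 ranks of 0.0729% and 0.0843% and H3K4me3 ranks of 2.39% and 0.645%. HASPIN, a mitotic histone H3 kinase, had SAP30 ranks of 0.387% and 0.224% and H3K4me3 ranks of 0.854% and 1.67%. HNRNPU, an RNA-binding nuclear matrix protein, had SAP30 ranks of 1.89% and 1.41% and H3K4me3 ranks of 0.139% and 0.109%. The group mixed chaperones (CCT2, PDIA4), cell cycle regulators (E2F8, FBXO5, HASPIN), a nuclear import receptor (IPO7) and the MYC partner MAX. All 8 had summits of both Pol II, H3K9Ac, SIN3A and SIN3B libraries.

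The genes that the study followed as coactivated by SAP30 mostly ranked in the middle of the lists or below. Over all genes with both targets, mean SAP30 ranks had a median of 16.99% and an interquartile range of 8.46% to 27.9%. CLDN1, PDGFD, ADM2 and NOTCH3 were weaker than this range, with mean ranks of 35.1%, 37.7%, 57.7% and 77.6%. For H3K4me3 the range was 13.0% to 36.1%, with CLDN1 inside it (33.6%) and PDGFD, ADM2 and NOTCH3 weaker (47.5%, 54.1% and 56.1%). RDX, which encodes radixin, a linker of actin to the membrane, was the exception, with SAP30 ranks of 4.55% and 1.54% and H3K4me3 ranks of 17.4% and 1.53%. The tight junction gene CLDN1 had SAP30 ranks of 38.3% and 31.9% and H3K4me3 ranks of 33.2% and 33.9%. PDGFD, a ligand of PDGF receptor beta, had 24.8% and 50.6% for SAP30 and 46.1% and 49.0% for H3K4me3. The peptide hormone gene ADM2 had 47.3% and 68.2% for SAP30 and 55.6% and 52.5% for H3K4me3, and the receptor gene NOTCH3 had 86.8% and 68.5% for SAP30 and 56.1% and 56.1% for H3K4me3.

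PDGFB, the other PDGF ligand of that list, had SAP30 in replicate 2 only (61.8%) and H3K4me3 in replicate 2 only (68.2%). Neither target was thus found in both libraries within 1000 bp of a PDGFB start site. With a window of 3000 bp, however, 6 of the 6 coactivated genes, PDGFB included, had both targets in both libraries. Of the genes followed for repression, IPO13, a nuclear import receptor, had strong SAP30 at 4.50% and 2.82% with H3K4me3 at 29.0% and 25.8%. The neurotrophic ligand gene ARTN had SAP30 at 41.6% and 56.5% and H3K4me3 at 52.0% and 51.8%, and the heat shock gene HSPA6 had 28.2% and 37.0% for SAP30 and 38.8% and 31.2% for H3K4me3. At HSPA6 both H3K4me3 summits lay upstream of the start site, at -89 bp and -142 bp.

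The SAP30 gene itself had its own product at the start site (ranks 1.36% and 5.12%, at +103 bp and +90 bp), with H3K4me3 ranks of 11.3% and 22.0% at +378 bp and +398 bp. Genes of SIN3 complex subunits carried both targets in 16 of 18 cases, against 60% of all genes. The exceptions at 1000 bp were SIN3A and ING2. SIN3A had SAP30 in replicate 2 only (14.9%) and H3K4me3 at 2.12% and 3.53%. ING2 had H3K4me3 at 13.1% and 10.6% and no SAP30 within 1000 bp. With a window of 3000 bp 18 of the 18 genes had both, so these exceptions depend on the window. The median rank of the 16 genes with both at 1000 bp was 12.3% for SAP30 and 13.6% for H3K4me3.

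Of genes of H3K4 methyltransferase complexes 14 of 15 had both, and of a list of histone lysine demethylases and their partners 8 of 8, against 60% of all genes. Not every enzyme of the second list acts on H3K4me3. KMT2A, which encodes MLL1, had SAP30 ranks of 0.346% and 0.733% and H3K4me3 ranks of 0.322% and 2.77%. KDM5B, an H3K4me3 demethylase, had SAP30 ranks of 1.42% and 0.602% and H3K4me3 ranks of 4.23% and 14.4%. KDM2A, known chiefly as an H3K36 demethylase, had 2.72% and 0.880% for SAP30 and 1.49% and 10.998% for H3K4me3. SETD1B had SAP30 in replicate 2 only, and with a window of 3000 bp 15 of the 15 methyltransferase complex genes had both.

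Of 21 angiogenic ligand and receptor genes, 14 had both (66.7%, near the 60% of all protein-coding genes) and 5 had neither (23.8%, against 33.5%), ANGPT2, FLT1, FLT4, PDGFRA and TEK. VEGFA, the main vascular growth factor, ranked at 9.05% and 22.1% for SAP30 and 18.9% and 4.79% for H3K4me3. The co-receptor gene NRP1 had 10.8% and 15.7% for SAP30 and 5.90% and 1.83% for H3K4me3, whereas NRP2, its paralog, had SAP30 at 11.4% and 11.9% but H3K4me3 only at 43.7% and 45.7%. Endothelial receptors differed among themselves, with KDR carrying both targets at weak ranks and FLT1, FLT4 and TEK neither. With a window of 3000 bp 17 of the 21 genes had both.

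Among 9 AP-1 factor genes, 5 had both (55.6%, near the 60% of all genes). FOSL1 had SAP30 at 1.73% and 3.02% and H3K4me3 at 3.35% and 5.97%, FOS had H3K4me3 alone (32.5% and 25.8%), and BATF had neither. JUN and JUNB had SAP30 in replicate 2 only, and with a window of 3000 bp 8 of the 9 genes had both. Of 18 luminal epithelial genes, 10 had both (55.6%, again near the 60%), 4 had neither (ELF3, GATA3, GRHL2 and OVOL1), CDH1 and ESR1 had H3K4me3 alone, and TFF1 had SAP30 alone at weak ranks of 66.4% and 75.4%. Larger families ranged widely: both targets were at 80 of 84 cytosolic ribosomal protein genes (95.2%), 419 of 508 ZNF-named genes (82.5%), 33 of 64 replication-dependent histone genes (51.6%), 7 of 39 HOX genes (17.9%) and 0 of 399 olfactory receptor genes. The count of 0 is an absence of called summits, and with unknown depth gives no limit on binding.

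Families also differed in the balance of the targets. The histone genes with both had a median SAP30 rank of 30.4% and H3K4me3 rank of 47.8%, whereas ribosomal protein genes had 15.3% for SAP30 and 15.3% for H3K4me3. Over all genes with both, the medians were 16.99% and 22.7%. The lists of the targets differ in length, so their ranks are not on the same scale. H3C2, a histone H3 gene, had SAP30 at 5.24% and 22.0% and H3K4me3 at 47.0% and 49.3%. Neighbouring histone genes often share a start-site window and then the same summits, so they are not independent.

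Genes with SAP30 and no H3K4me3 were examined with a stricter rule, no H3K4me3 summit of either library within 3000 bp of a start site, which left 86 genes. NPAS4, a neuronal activity-dependent transcription factor, held the top summit of both SAP30 lists (rank 0.00143%), 753 bp downstream of its start site in both replicates. The same gene held the top summit of both SIN3A lists (0.00450% and 0.00460%) and SIN3B summits at 2.23% and 3.67%, with no summit of H3K4me3, H3K9Ac or Pol II in any parental library. SCRT1, a neural transcriptional repressor, had SAP30 at 1.67% and 2.34% and SIN3A at 2.90% and 1.06%, and again no Pol II or H3K9Ac.

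The next genes had weaker SAP30. XKR7, a member of the XK-related membrane protein family, had SAP30 at 8.52% and 6.58%, and HTR5A, a serotonin receptor, had 24.6% and 8.72%. The homeobox gene BARHL1 had 25.7% and 21.6%, and CCDC92B had 26.2% and 18.6%. SMIM5 (17.6% and 24.2%) and ENSG00000284969 (20.5% and 19.3%) completed the 8. RE1-like matches within 150 bp of the best SAP30 summit were present at NPAS4, SCRT1, XKR7, HTR5A, CCDC92B and BARHL1 and not at SMIM5 and ENSG00000284969. These last 2 also differed in having H3K9Ac summits in both libraries, which none of the other 6 had.

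Among genes with both targets, SAP30 was furthest ahead of H3K4me3 at SYP, MAF, LRRC74B, USP2, FOXJ1 and DNAJC6. SYP, a synaptic vesicle protein, had SAP30 at 3.65% and 0.945% and H3K4me3 at 82.2% and 82.8%. DNAJC6, the neuronal clathrin uncoating factor auxilin, had SAP30 at 2.09% and 0.805% and H3K4me3 at 61.6% and 61.0%. The deubiquitinase gene USP2 had SAP30 at 0.462% and 0.199% with H3K4me3 at 64.6% and 64.5%, and FOXJ1, a regulator of motile cilia, had 4.33% and 3.46% for SAP30 and 61.4% and 67.3% for H3K4me3. Only SYP and DNAJC6 of these 6 had an RE1-like match, and SYP was the only 1 of the 6 with Pol II summits.

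In the other direction, ADGRL2, PBLD, PFDN1, ENSG00000285655, IPO8 and COX7C had strong H3K4me3 and weak SAP30. PFDN1, a prefoldin chaperone subunit, had H3K4me3 at 0.563% and 1.40% and SAP30 at 48.0% and 79.2%. COX7C, a subunit of cytochrome c oxidase, had 13.3% and 0.965% for H3K4me3 and 64.9% and 40.1% for SAP30. ADGRL2, an adhesion receptor, had 15.7% and 16.4% for H3K4me3 and 96.8% and 84.8% for SAP30. Except for ENSG00000285655, all had Pol II summits in both libraries.

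Genes with H3K4me3 and no SAP30 within 3000 bp (310 genes) held no strongly ranked peak: the best was ZNF311, a zinc finger gene, with H3K4me3 at 41.8% and 46.2%. It was followed by FUNDC1, a mitophagy receptor (46.3% and 52.2%), the autophagy gene MAP1LC3A (50.4% and 48.6%) and the sperm fusion gene IZUMO1 (47.4% and 54.2%), and ZNF418, DTX3 and SLC2A14 were also among the best-ranked. Only 3 of the 310 genes (0.968%) had a mean rank better than 50%, and 38 of the 86 strict SAP30-only genes (44.2%) had. Both shares were below those of genes with both targets, 91.3% for H3K4me3 rank and 94.0% for SAP30 rank. The strict window also left out stronger peaks, since 17 of the 405 H3K4me3-only genes at 1000 bp had a mean rank better than 10%.

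**Figure D4:**
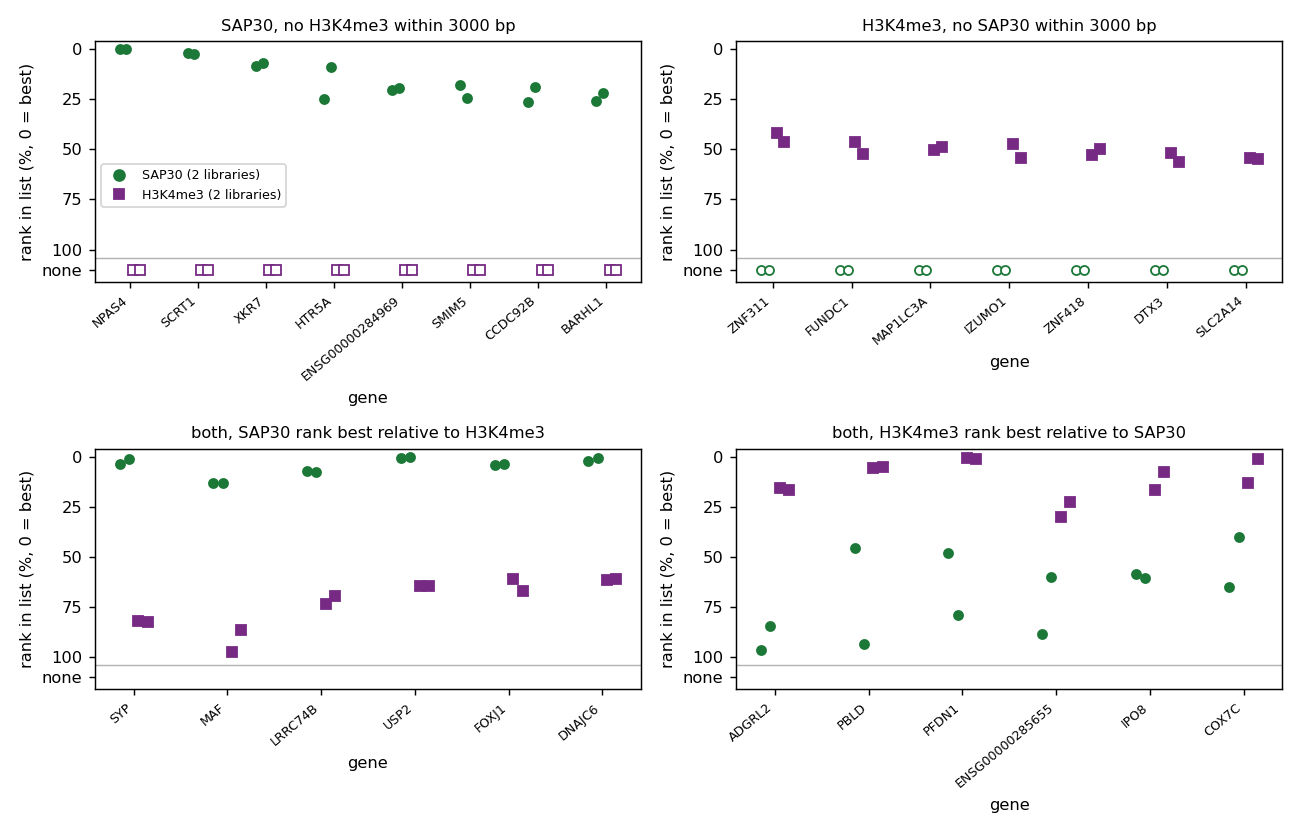
Rank of the best summit within 1000 bp of a start site (y axis, %, 0 = best at the top) in each SAP30 library (green circles) and H3K4me3 library (purple squares) for the named genes (x axis), with open symbols at "none" where no summit was listed. SAP30-only genes range from 0.00143% at NPAS4 to 26.2%, whereas the leading H3K4me3-only gene, ZNF311, has 41.8% and 46.2%.

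Readouts that had no part in defining the classes differed between them. At shared promoter regions, 89.7% and 91.5% had a Pol II summit within 1000 bp (values of the 2 libraries), against 32.6% and 35.7% at SAP30-only and 19.8% and 22.8% at H3K4me3-only promoter regions. SIN3B was present at 84.5% and 82.5% of shared, 52.4% and 36.8% of SAP30-only and 17.5% and 18.0% of H3K4me3-only promoter regions. SIN3A was at 55.9% and 54.1% of shared, 16.5% and 14.7% of SAP30-only and 11.3% and 10.6% of H3K4me3-only promoter regions. The differences between shared regions and both other classes exceeded the difference between libraries for each of these 3 targets.

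At distal SAP30-only regions H3K9Ac summits were found more often than those of Pol II or the SIN3 scaffolds. Shares of different targets also depend on the length of each list, and its part was not tested. H3K9Ac was found at 67.4% and 65.0% of the 7933 regions, Pol II at 13.8% and 19.4%, SIN3B at 36.9% and 21.7% and SIN3A at 3.81% and 3.93%. Distal shared regions had H3K9Ac at 90.8% and 90.6% and Pol II at 56.2% and 64.9%. Distal H3K4me3-only regions had H3K9Ac at 53.9% and 48.9% but SIN3B at only 6.50% and 5.50%.

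Since the classes differ in rank, SAP30-only and shared regions were also set side by side within deciles of SAP30 rank over both classes. The classes still differed in location there, with 45.3% of the SAP30-only and 98.1% of the shared regions of the best decile at promoters, and the part of location in the differences was not tested. In the best decile, SIN3A was at 97.3% and 94.7% of the 75 SAP30-only regions and at 98.7% and 97.8% of the 2283 shared regions. SIN3B was likewise at 96.0% and 82.7% and at 99.2% and 98.9%. Pol II, however, was at 53.3% and 48.0% of the SAP30-only regions and at 97.6% and 97.6% of the shared ones, and H3K9Ac at 46.7% and 44% and at 98.3% and 97.9%. The closeness in SIN3A did not extend to the next deciles, and nearly all regions of the best decile had it. SIN3A was at 76.8% and 75.8% of SAP30-only against 88.9% and 85.4% of shared regions in the second decile, at 52.5% and 49.6% against 68.3% and 64.7% in the third, and at 23.8% and 24.6% against 43.1% and 42.1% in the fourth. SAP30-only regions were thus below shared regions in SIN3A in these deciles, as they were in Pol II and H3K9Ac in the best decile.

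**Figure D5:**
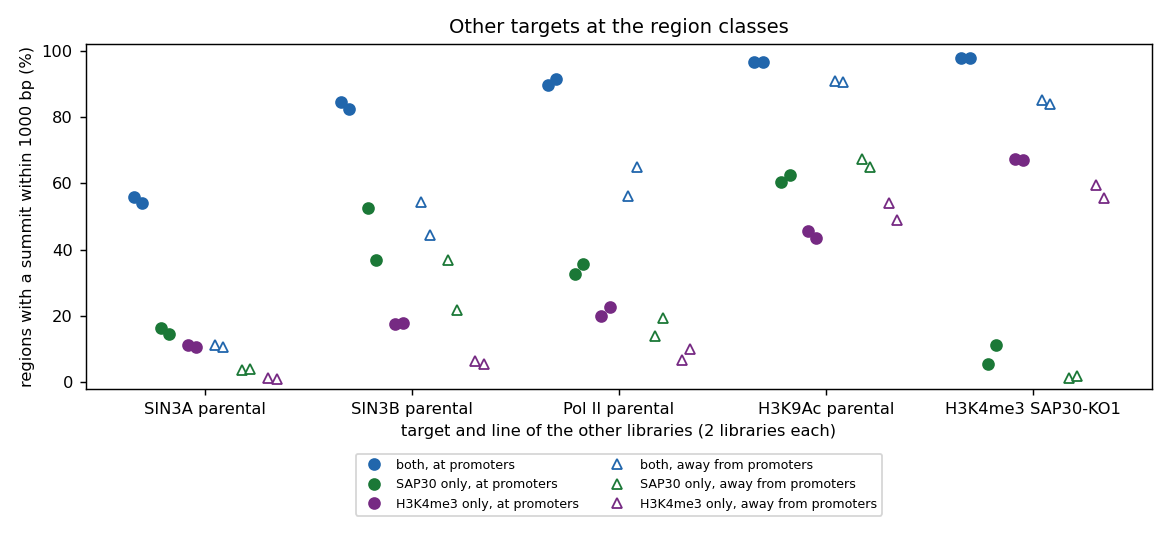
Percentage of regions (y axis) of each class with a summit of another target within 1000 bp, 1 symbol per library, for SIN3A, SIN3B, Pol II and H3K9Ac in parental cells and H3K4me3 in SAP30-KO1 cells (x axis). Shared promoter regions are highest for each target, from 55.9% and 54.1% for SIN3A to 97.7% for H3K4me3 in SAP30-KO1, and distal SAP30-only regions are highest for H3K9Ac (67.4% and 65.0%).

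At the level of genes, Pol II was at 93.5% and 94.9% of genes with both, 47.8% and 49.1% of the 159 genes with SAP30 only, 18.8% and 22.2% of the 405 with H3K4me3 only and 0.623% and 0.638% of those with neither. Under the stricter rule of 3000 bp, the shares fell to 19.8% and 20.9% of 86 and 5.81% and 10.0% of 310 genes. Many genes of the wider SAP30-only class thus had H3K4me3 farther from the start site. SIN3A was at 0 of the 310 strict H3K4me3-only genes in either library and SIN3B at 5 in each.

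A called H3K4me3 summit in the SAP30-KO1 line was found at 99.4% and 99.5% of genes with both and at 69.4% and 69.6% of genes with H3K4me3 only. Part of this gap went with rank. Among genes with a parental H3K4me3 rank from 60% to 80%, SAP30-KO1 H3K4me3 was at 88.6% and 90.1% of the 332 genes with both and at 72.5% and 72.5% of the 200 with H3K4me3 only, with median parental ranks of 64.6% and 68.9%. In the same bin, Pol II was at 38.6% and 42.2% against 5.50% and 10.0%. The gap in SAP30-KO1 H3K4me3 was smaller at ranks from 40% to 60%. There it was at 99.6% and 99.7% of 1998 genes with both and 93.2% and 97.7% of 44 with H3K4me3 only. From 80% to 100% the shares were 57.9% and 47.4% of 38 genes against 38.1% and 38.1% of 105. Of the 159 SAP30-only genes, 11.9% and 18.9% had an H3K4me3 summit in SAP30-KO1, and of the strict 86 genes 1 and 3 had. All these shares count called summits and do not measure the level of the mark. The study reports a lower H3K4me3 level in SAP30-KO1 cells at its coactivated genes, and levels were not compared here.

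The classes also differed in sequence, measured in 300 bp around the best SAP30 summit or, without SAP30, the best H3K4me3 summit. Median GC content was 69.7% at shared promoters, 66.3% at H3K4me3-only promoters and 57.0% at SAP30-only promoters, against 64.3% for all protein-coding start sites. The observed over expected CpG ratio was 0.84, 0.72 and 0.33 in that order. Windows like a CpG island, with over 55% GC and a CpG ratio over 0.6, made up 86.6% of shared, 60.3% of H3K4me3-only and 19.4% of SAP30-only promoter regions. Distal SAP30-only regions had 52.0% GC, a CpG ratio of 0.25 and 2.18% island-like windows, while distal shared regions had 60%, 0.56 and 39.96%.

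The AP-1 motif was in 51.2% of the distal SAP30-only windows and 35.9% of the SAP30-only promoter windows, as in the sequences in DNAJB6 and near CAMSAP1-DT. It was in 21.9% of distal shared, 4.63% of shared promoter, 7.74% of distal H3K4me3-only and 3.15% of H3K4me3-only promoter windows, and in 5.12% of windows at all protein-coding start sites. In distal SAP30-only regions it lay at a median of 46.5 bp from the summit (4060 windows). Within distal shared regions, it was in 21.9% of the windows around the SAP30 summit and 7.61% of those around the H3K4me3 summit of the same region. At shared promoters these shares were 4.63% and 2.14%. H3K4me3-only windows are centred on H3K4me3 summits, so only the second share of each pair compares like with like.

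GC-rich motifs had another pattern. GGGCGG, bound by SP and KLF factors, was in 70.7% of shared promoter, 52.1% of H3K4me3-only promoter and 14.4% of distal SAP30-only windows (56.7% of all start-site windows). CCGGAA, the ETS core, was in 24.99%, 12.4% and 7.02% (21.4% of all start-site windows). CACGTG, the E-box of MYC and MAX, was as common in distal SAP30-only as in shared promoter windows and rarer in H3K4me3-only promoters, in 11.4%, 2.36% and 11.7% (7.37% of all start-site windows). Around the H3K4me3 summits of the same shared promoters the shares were lower, 63.2% for GGGCGG, 16.6% for CCGGAA and 4.34% for CACGTG, at nearly the same GC content, 69.3% against 69.7%. Windows of H3K4me3-only promoters are also centred on H3K4me3 summits, so these are the shares to set beside theirs. GGAATG, the TEAD motif, was in 25.05% of distal SAP30-only windows and 9.35% of shared promoter windows (11.1% of all start-site windows), and CCAAT was in 26.3% and 20.3% (31.5% of all start-site windows).

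Of the remaining motifs, AAGATGGCG (YY1) was in 2.53% of shared promoter, 0.945% of H3K4me3-only promoter and 0.0378% of distal SAP30-only windows (2.66% of all start-site windows). TGACGTCA, the cAMP response element, was in 1.63%, 0.945% and 0.454% (2.07%). The NRF1 motif was in 0.743%, 0.157% and 0.0378% (1.35%), the CTCF motif in 0.866%, 0.472% and 1.61% (0.629%), and the ZBTB33 motif in 0.286%, 0% and 0% (0.511%). Some of these letters overlap each other, and the classes differ in GC content and in the summit on which windows are centred. The part of these in the motif shares was not tested.

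The RE1-like sequence was searched because of the leading genes, so its share there is a description. It was in 2.52% of SAP30-only promoter windows (18 of 715), 1.08% of distal SAP30-only windows (86 of 7933), 0.441% of shared promoter windows, 0.187% of distal shared windows and 0.314% of all start-site windows. H3K4me3-only regions held 2 matches in all, 1 at a promoter and 1 away from promoters. The median distance from the SAP30 summit was 21.5 bp in SAP30-only and 45.5 bp in shared regions. Allowing 2 mismatches brought the SAP30-only and shared shares together, at 3.69% and 3.36%.

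The counts that follow include leading regions that prompted the search, so they too are a description. In the best decile of SAP30 rank, 12 of 75 SAP30-only regions (16.0%) had an RE1-like match, against 17 of 2283 shared regions (0.745%). The AP-1 motif was in 24% of these SAP30-only regions, so most of them held neither sequence. Put the other way, H3K4me3 was missing at 41.4% of the 29 regions with a match and 2.71% of the 2329 without. These sets also differed in location, with 65.5% and 96.8% of the regions at promoters, and the part of location in the contrast was not tested. Both kinds had SIN3A, at 100% and 96.6% of the regions with a match and 98.7% and 97.7% of those without. Pol II was at 51.7% and 51.7% of the regions with a match and 96.8% and 96.6% of those without, and H3K9Ac at 58.6% and 55.2% and at 97.1% and 96.7%. A distal case was the region in the SYT7 neighbourhood, 13451 bp from the SYT7 start site (a synaptotagmin gene), with SAP30 at 0.636% and 0.253%, SIN3A and SIN3B in both libraries, an RE1-like match and no H3K4me3, H3K9Ac or Pol II, named after its values were seen.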

How the data were processed

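Processed ChIP-Seq peak summits of MDA-MB-231 cells were analysed, grouped by antibody target and line from the labels (2 libraries per group). The deposited files give 1 bp summits that the authors called per library, not on pooled replicates, with a score that is the −log10 of a q-value. Per the labels' processing notes the authors used FastQC 0.11.2, Bowtie2 2.3.3.1, Picard and MACS2 2.1.0 on hg19. Options, controls and depth are not given in the sources used here, and the H3K4me3 peak names carry the tag "20perc" and the Pol II names a "20". The meaning of these tags is not given. If they mark a subset of the reads, the H3K4me3 and Pol II lists are shorter than full depth would give, which would lower the shares of SAP30 regions with H3K4me3 or Pol II. Per the study's methods, sonicated cross-linked chromatin was immunoprecipitated. Intervals needing counts were not computed.

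Summits on autosomes and chromosome X were ranked within each list and merged within 1000 bp (Python 3.11.15, numpy, pandas, scipy and pysam). Consensus regions held both replicates, and 2 regions overlapped when their outermost summits, extended by 500 bp, met. Start sites were those of basic transcripts in GENCODE release 44 lifted to GRCh37, with a window of 1000 bp. A gene's rank was that of its best summit in the window. Motifs were searched on both strands in GRCh37 sequence. Two-sided exact permutation tests compared 2 libraries with 2. Correlations and class shares carry no test, since regions and genes are not replicates. The functions were tested on simulated lists.

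Named genes were the genes followed by the study and SAP30, the 8 best with both, the 8 best strict members of each single-target class, the 6 with the largest rank difference each way, and up to 4 examples per list, passing over genes that share a window with a named one. The members, the 15 gene lists and the rules were chosen with earlier results of these data known. The RE1-like search and the distal regions named were chosen after seeing the data. Total histone H3 and input samples, and the Pol II and H3K9Ac lists of SAP30-KO1 cells, were not used here. Some items that the rule named are not reported here.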

Additional observations from a re-analysis of the deposited data

How the results depend on the processing

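The number of summits depends on unknown depth and calling options, 2 libraries per group cannot pass the 0.05 level, and ranks compare sites within a list only. Of 141 alternative values, 78 were labelled the same, 63 moved and 0 changed sign. The same meant within the replicate spread, within 1.5 times for counts, or the same direction, at any size, where tested. Shares, counts and offsets cannot change sign, so the 0 does not speak to them. The order of classes did change: in the better-ranked 50%, Pol II was at 29.6% of SAP30-only and 50.3% of H3K4me3-only genes. In the main setting these shares were 48.4% and 20.5%. The promoter share difference, 21.6 points, was 9.25 to 25.2 points across the settings and 19.6 to 23.7 points with 1 library left out. The distance differences held the same direction throughout. The correlation across genes of the replicate differences in rank, SAP30 with H3K4me3, was -0.018. This value showed no pairing by replicate number, but it cannot tell whether replicates of the same number shared chromatin. With the replicate number as a block, the differences were the same, 21.6 points, 92.5 bp and 114 bp, with an exact sign-flip p of 0.5, the smallest that 2 pairs allow, and no other result came from a test.

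Merging within 200, 500 and 2000 bp gave 34.9%, 53.1% and 65.1% of SAP30 regions with H3K4me3 and 45.2%, 72.5% and 86.2% of H3K4me3 regions with SAP30. The better-ranked 50% of each list gave 69.0% and 93.2%, equal lengths 74.7% and 75.03%, and regions of either replicate 53.2% and 84.5%. With 1 library left out, the shares ran from 52.2% to 63.2% and from 79.2% to 86.7%. The rank correlation was 0.63 with median ranks, 0.59 at promoters, 0.36 away from them, and 0.68 to 0.72 with 1 library left out. The offset was 186.5 bp to the best-ranked H3K4me3 summit and 168 bp to 182 bp with 1 library left out.

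SAP30-only genes numbered 453 at 500 bp, 468 in the better-ranked 50% and 191 to 225 with 1 library left out. H3K4me3-only genes numbered 640, 150, 743 with lists of equal length, and 449 to 630. At 3000 bp, both targets were at 8 AP-1 factor, 18 SIN3 subunit, 15 H3K4 methyltransferase complex, 17 angiogenic and 6 coactivated genes. Over all 20098 protein-coding genes 12669 had both in that window. For the better-ranked 50%, 500 bp and 3000 bp, Pol II was at 29.6%, 77.9% and 23.1% of SAP30-only and 50.3%, 46.1% and 8.40% of H3K4me3-only genes, and at 88.8% of genes with both in the better-ranked 50%. SIN3A was at 15.3%, 53.2% and 8.55% of SAP30-only and 16.3%, 26.1% and 0% of H3K4me3-only genes, and at 44.5% and 60.4% of genes with both in the first 2 settings. SAP30-KO1 H3K4me3 was at 6.84%, 22.5% and 2.85% of SAP30-only genes, 70.7%, 78.1% and 66.1% of H3K4me3-only genes, and 97.1% and 98.4% of genes with both in the first 2 settings. Windows change which genes form the classes.

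In 600 bp, AP-1 was in 8.18% of shared promoter, 59.5% of distal SAP30-only and 9.92% of H3K4me3-only promoter windows, with GC of 67%, 49.7% and 64%. RE1-like matches, an alternative chosen after seeing the data, were in 3.36% of shared and 3.69% of SAP30-only regions with 2 mismatches, and in 0.616% of shared regions in 600 bp. The cause of these shifts was not tested.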
